A study of Mus musculus with 24 samples.

Results

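The genes described are the odorant receptors numbered Olfr763 to Olfr827, which lie together on mouse chromosome 10. They were taken by number from GENCODE M21 symbols in both count tables, and 7 genes of this range named as pseudogenes were left out. That gave 57 of the 1107 numbered Olfr genes without a pseudogene name and of the 57010 genes in each table. RNA came from the olfactory epithelium of wild-type male C57BL/6J mice aged 8 weeks, with no transgene or mutation in any group. All mice were held without odor for 4 h and then spent 90 min with a filter paper. The paper was empty for controls or carried 10 µL of odorant. The AD batch held 4 groups of 3 libraries: AD control, acetophenone, decanal and the 1:1 mixture of both. The OC batch held OC control, octanal, cis-3-hexenol and the 1:1 mixture of both, again with 3 libraries each. Acetophenone is a ketone with a benzene ring, decanal and octanal are unbranched aldehydes of different length, and cis-3-hexenol is an alcohol with a double bond. In all groups the tissue was perfused and homogenized in buffers with cycloheximide, which halts translation and RNA was taken from the homogenate after it was cleared by centrifugation. The labels call the libraries biological replicates and do not say whether a library is 1 mouse. Each odorant was set against the control of its own batch, since batch and mice differ together between the control sets.

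Odorant receptors are G-protein coupled receptors of the cilia of olfactory sensory neurons. A mature neuron transcribes 1 allele of 1 receptor gene, so the RNA of a receptor in whole tissue follows both the number of neurons that chose it and the RNA in each, which cannot be told apart in bulk samples. Mouse receptors sit in genomic clusters of tandem copies, and members of a cluster are often near-identical. An odorant can lower the RNA of the receptors it activates within minutes to hours, and prolonged exposure can also change how many neurons of a type survive.

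The members fell into 13 families of the MOR naming in RefSeq synonyms, and 1 (Olfr765) had no such name there. The largest were family 114 with 13 members, and families 110 and 111 with 10 each. In genomic order, 27 members were read from the plus strand and 30 from the minus strand. Coding sequences were found in GENCODE M21 for 56 members. Among 187 pairs of 1 family the identity of these sequences had a median of 74.3% and ran from 61.5% to 99.3%. At 90% identity or more there were 23 pairs of members, which together took in 34 members. Near-identical copies matter for the values below, because a read from a shared stretch must be split between them by estimation. The following stretches show 4 pairs, chosen because each holds a receptor on which a result turns. Each is printed 5′ to 3′ from the GENCODE M21 transcripts of GRCm38, on the strand of the gene, with the bases that differ between the pair in capitals.

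Olfr819, coding bases 554 to 673, shown because its low level with acetophenone stands first by p: 
Olfr819: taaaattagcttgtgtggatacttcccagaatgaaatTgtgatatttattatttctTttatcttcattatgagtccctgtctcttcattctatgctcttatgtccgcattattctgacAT
Gm10310: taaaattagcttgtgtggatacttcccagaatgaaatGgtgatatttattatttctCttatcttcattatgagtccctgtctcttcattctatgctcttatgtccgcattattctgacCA
Olfr805 and Olfr806, coding bases 1 to 120, shown because both are among the receptors called most often:
Olfr805: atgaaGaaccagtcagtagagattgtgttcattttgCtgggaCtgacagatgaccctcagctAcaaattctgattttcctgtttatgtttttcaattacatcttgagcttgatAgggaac
Olfr806: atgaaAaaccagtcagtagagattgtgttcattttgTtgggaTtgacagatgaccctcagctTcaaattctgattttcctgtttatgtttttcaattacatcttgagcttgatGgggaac
Olfr777 and its closest member Olfr800, coding bases 1 to 120, shown because Olfr777 was lower with decanal and with the mixture:
Olfr777: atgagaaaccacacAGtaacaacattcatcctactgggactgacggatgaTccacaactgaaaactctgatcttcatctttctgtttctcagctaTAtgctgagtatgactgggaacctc
Olfr800: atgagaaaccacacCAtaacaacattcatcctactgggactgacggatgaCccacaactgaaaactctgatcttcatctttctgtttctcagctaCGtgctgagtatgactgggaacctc
Olfr788 and Olfr789, from coding base 1 to 117 and 120, shown as neighbours with high levels and a low spread:
Olfr788: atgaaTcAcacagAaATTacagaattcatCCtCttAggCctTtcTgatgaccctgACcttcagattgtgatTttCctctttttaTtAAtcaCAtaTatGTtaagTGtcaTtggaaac
Olfr789: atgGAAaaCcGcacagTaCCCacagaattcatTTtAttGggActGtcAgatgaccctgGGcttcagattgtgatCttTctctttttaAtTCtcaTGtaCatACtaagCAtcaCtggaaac

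Olfr819, the only member of family 265, and the predicted gene Gm10310 beside it have coding sequences of 945 bases with 7 differences, an identity of 99.3%, and 4 of these lie in the stretch shown. Olfr805 and Olfr806, neighbours of family 110, differ at 60 aligned positions (93.8% identity). Olfr777 and Olfr800 of family 114 differ at 30 (96.8%). Olfr788 and Olfr789 of family 111 differ at 230, so their reads are far easier to assign. In the deposited values, 6 members, among them Olfr819, Olfr805, Olfr806, Olfr823 and Olfr824, had a value that was not whole in all 24 libraries, and those of Olfr788 and Olfr789 were whole throughout. Identity alone did not set this, since Olfr777 and Olfr800 were also whole throughout at 96.8% identity. Counting members with any value further than 0.01 from a whole number, 21 were fractional, and for these the split between genes is an estimate. For Olfr819 with Gm10310 and Olfr805 with Olfr806 the sum is given beside the single genes. The same is done for the calls of Olfr767 with octanal, of Olfr824 with octanal and the OC mixture, and of Olfr826 between decanal and acetophenone.

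Levels of different genes are compared per transcript length, in TPM, transcript counts per length on a common total, from the deposited counts and the longest GENCODE M21 transcript. The members were low-abundance genes with a wide range. Their median over both control sets was 1.12 TPM, beside 1.26 TPM for the other 1050 receptors, and ran from 0.0298 to 8.15 TPM. The highest was Olfr805, with AD controls at 11.1 ± 2.01 TPM (SD, n = 3) and OC controls at 5.21 ± 1.43. Next stood Olfr820, the only member of family 116, at 9.65 ± 0.992 and 4.70 ± 1.71 TPM. Olfr788 followed at 8.19 ± 1.07 and 5.12 ± 1.06 TPM, Olfr796 at 6.71 ± 1.77 and 4.06 ± 0.985, and Olfr789 at 6.49 ± 0.360 and 3.34 ± 0.506. In both control sets, neighbours in this order differed by less than the sum of their SDs. The 5 genes together held 33.3% of the summed level of the 57 members. At the low end of the tested members stood Olfr802 (0.138 TPM over both control sets), Olfr814 (0.151) and Olfr763 (0.222).

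**Figure D1:**
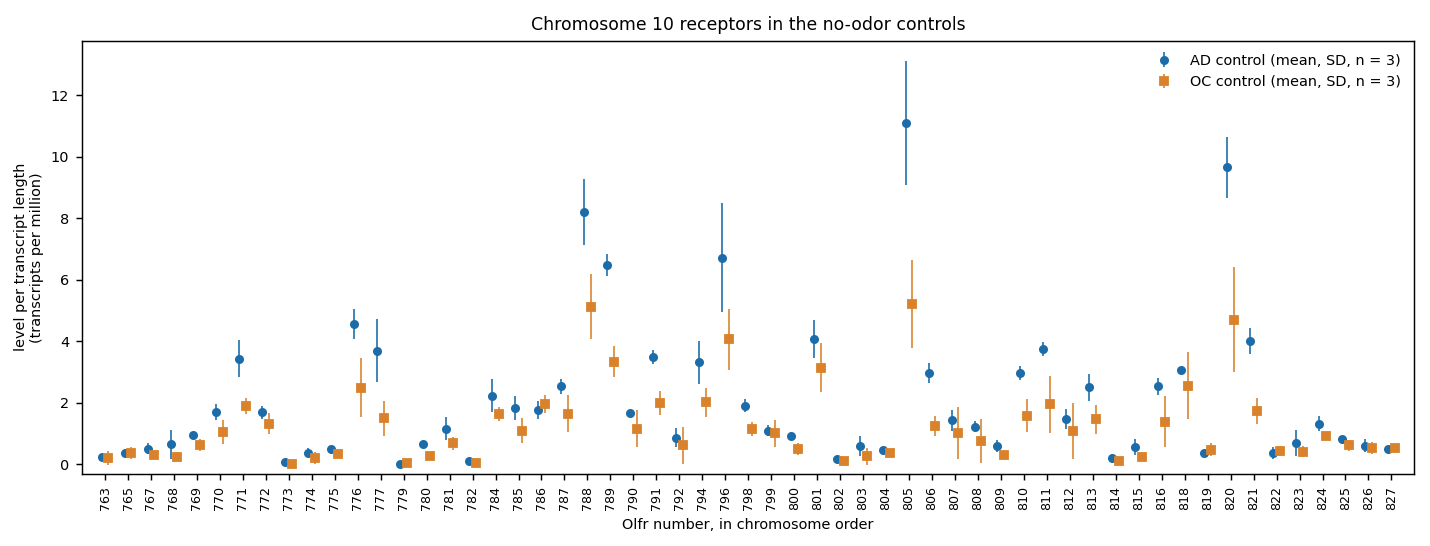
Level of each of the 57 receptors in the no-odor controls, in TPM (mean and SD of 3 libraries), in chromosome order. Olfr805, Olfr820, Olfr788, Olfr796 and Olfr789 stand highest, and they are spread along the cluster rather than side by side, apart from Olfr788 and Olfr789.

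A count was present in all 24 libraries for 52 members. Olfr779, annotated as a polymorphic pseudogene, had 4 counts in all, in 2 libraries, and Olfr773, the near-copy of Olfr772 (99.3% identity), had 14 counts in 7 libraries. These 2, Olfr774 and Olfr782 were too low to be tested in either batch, and Olfr763 was tested in the AD batch only. Thus the AD batch had 53 tested members and the OC batch 52. The spread between libraries of a group, beyond counting noise, had a median coefficient of variation over the members of 22% (AD) and 21.8% (OC). It was 21% and 22.2% for the other receptors, and 9.36% and 10.4% for all genes tested. The steadiest members were Olfr820 (0.0773 as a fraction, in AD) and Olfr788 (0.0789 in OC). The least steady were Olfr768 (0.434 in AD) and Olfr803 (0.567 in OC). Olfr808 of family 112 shows what such a spread looks like: its OC controls read 0.449, 3.33 and 1.23 CPM (a count relative to the library's size, scaled by the trimmed mean of M-values, TMM), and its AD controls 1.89, 2.49 and 2.63.

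Library totals ran from 19003749 to 24802492 counts. Summed over the 57 members, the AD controls held 172 to 181 CPM and the other AD libraries 148 to 193. The OC controls held 106 to 143 CPM, below every OC odorant library (158 to 199). All numbered receptors together moved the same way: 3514 to 4182 CPM in the OC controls and 4680 to 5733 CPM in the OC odorant groups. Of all receptor counts, the members held 3.5% ± 0.0666 in the AD controls (SD, n = 3), 3.58% ± 0.207 with acetophenone, 3.55% ± 0.0551 with decanal and 3.5% ± 0.257 with the AD mixture. They held 3.17% ± 0.210 in the OC controls, 3.42% ± 0.0603 with octanal, 3.40% ± 0.0473 with cis-3-hexenol and 3.40% ± 0.0586 with the OC mixture. OC control 2, at 3.41%, lay among the odorant libraries on this scale, and the other two, at 3.10% and 3.01%, lay below them all.

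**Figure D2:**
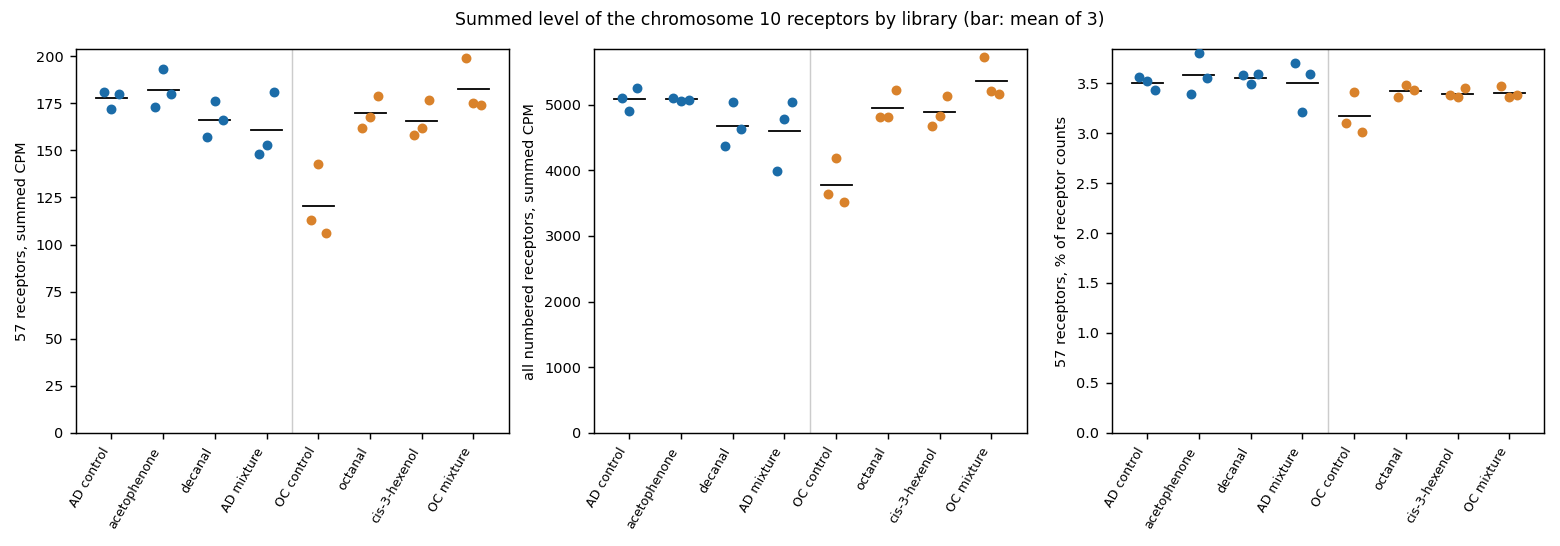
Summed CPM of the 57 members (left), summed CPM of all 1107 numbered receptors (middle) and the members' share of receptor counts (right), 1 point per library with the mean of 3 as a bar. The 3 OC controls lie below the 9 OC odorant libraries in both sums, and close to them in the share.

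Other genes of the tissue also differed between OC controls and OC odorant libraries. Omp, which marks mature sensory neurons, was at 12300 to 13600 CPM in the OC controls and 9260 to 11000 in the 3 odorant groups. Most of the other mature neuron markers did not follow Omp: of the 10 listed, 5 were called higher and 2 lower with octanal (median log2 fold change 0.22), 5 and 1 with cis-3-hexenol (0.21), and 5 and 1 with the OC mixture (0.25). The 4 red cell markers summed to 1980 to 4120 CPM against 689 to 1780, and the 5 bone markers to 981 to 1610 against 516 to 856. All 4 red cell markers were called higher with decanal and with the AD mixture and lower with octanal, and 3 of the 4 were called lower with cis-3-hexenol and with the OC mixture. Of the 8 neutrophil and marrow markers, 7 were called higher with decanal (median 2.33) and with the AD mixture (2.91), 7 lower with octanal (-1.90), 6 lower with the OC mixture (-0.78) and 0 with cis-3-hexenol (-0.56) by edgeR. In the AD batch the red cell markers summed to 453 to 594 CPM in controls, 213 to 573 with acetophenone, and 1640 to 2370 with decanal or the mixture. The 10 mature neuron markers summed to 16500 to 22600 CPM over all libraries, and none was at 0. Of 2 markers of the dorsal zone picked after their values were seen, Acsm4 was lowest in OC control 1 (246 CPM), AD mixture 2 (315) and OC mixture 3 (387). Nqo1 was at 155, 206 and 249 CPM in these, and at 220 and 224 in acetophenone 2 and 3. The part of any of these in the results on the members was not tested.

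Acetophenone was compared with the AD control to ask which receptors answer to this ketone. No member was called by edgeR's quasi-likelihood test, with a call set at a Benjamini-Hochberg adjusted p under 0.05 over all genes. Of all genes 0.00512% were called, and 0.0% of receptors. Of the 53 tested members 6 had an unadjusted p under 0.05, and DESeq2 called 0. The median member stood at -0.08 on the log2 scale, beside -0.12 for the other receptors.

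Olfr819 had the smallest p of the members. Its deposited counts were 15.3, 14.2 and 14.4 in the AD controls and 3.5, 2.1 and 3.5 with acetophenone. In CPM these are 0.591, 0.601 and 0.584 against 0.122, 0.0836 and 0.127, so the groups do not overlap. They rest on few counts, whose split with Gm10310 is an estimate, so the closeness within each group carries little weight. The log2 fold change was -2.36 (SE 0.47, edgeR adjusted p = 0.412), which does not pass. With no low-count filter, when every gene with any count enters the fit, it was -2.37 and passed (adjusted p = 0.00946). The fold change thus barely moved, and the share of all genes called in that fit is not given, so this pass cannot be weighed against it. The near-copy of Olfr819, Gm10310, had 12.9, 27.7 and 22.8 counts in the AD controls and 4.64, 2.98 and 11.7 with acetophenone, also without overlap. With both genes summed the value was -1.91 (adjusted p = 0.412), an alternative added after the values were seen. With decanal Olfr819 read 1.31, 1.38 and 0.642 CPM and with the AD mixture 0.782, 0.627 and 0.868, all above its acetophenone libraries. Next by p was Olfr818 of family 110, at 2.36, 2.32 and 2.46 CPM in the controls and 4.58, 2.63 and 3.60 with acetophenone (log2 fold change 0.60, SE 0.21, adjusted p = 0.610 by edgeR). Of the 53 tested members 8 had no overlap between acetophenone and control, though 0 were called. The number was 8 with decanal, 7 with the AD mixture and 13 between decanal and acetophenone. In the OC batch it was 12 of 52 with octanal, 17 with cis-3-hexenol, 21 with the mixture and 8 between cis-3-hexenol and octanal. The share over all genes is not given, so a lack of overlap carries little weight by itself.

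**Figure D3:**
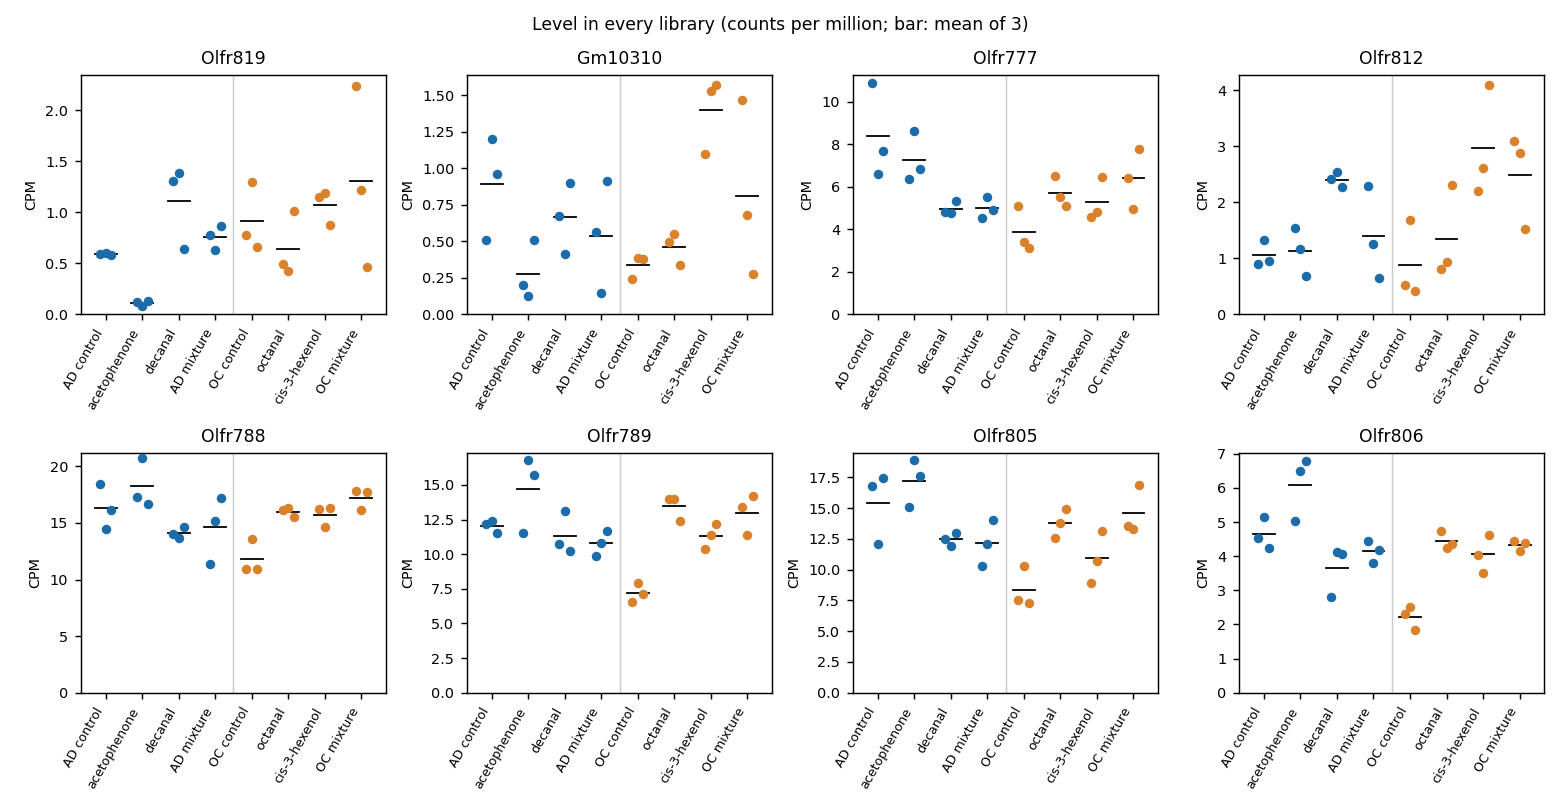
CPM in every library for Olfr819, its near-copy Gm10310 and 6 members on which results turn, by group, with the mean of 3 as a bar (blue, AD batch; orange, OC batch). The 3 acetophenone libraries of Olfr819 lie at the bottom of its panel, the decanal and mixture libraries of Olfr777 lie below its controls, and the OC controls of Olfr789 and Olfr806 lie below all other OC libraries.

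With decanal, 2 of the 53 members were called, 1 higher and 1 lower, or 3.77%. Of all genes 23.9% were called, and of the receptors 4.53%, with 0.97% higher and 3.56% lower, so the members' share is near that of receptors at large. Olfr777, a family 114 receptor, read 10.9, 6.61 and 7.67 CPM in the AD controls and 4.82, 4.75 and 5.35 with decanal. All 3 decanal libraries lie below the lowest control. Its log2 fold change was -0.76 (edgeR adjusted p = 0.00649, SE 0.18), and the call held without any 1 of the 6 libraries. Olfr812 of family 110 went the other way, from 0.906, 1.33 and 0.959 CPM to 2.41, 2.54 and 2.27. It was higher in 3 of 3 decanal libraries and rose by 1.18 (SE 0.38, adjusted p = 0.0349). This call ended without any 1 of 5 libraries (adjusted p from 0.0743 to 0.116; only AD control 2 could be left out) and under correction for length and GC content. Olfr805 and Olfr806 summed, an alternative added after the values were seen, fell by 0.32 (adjusted p = 0.0485), and neither gene alone was called. The median member was at 0.01, with 27 members above 0 and 26 below.

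The AD mixture was compared with the same controls, so its values share them with those of decanal. Only 1 member of 53 was called (1.89%), beside 22.3% of all genes and 4.96% of receptors, of which 0.431% higher and 4.53% lower. It was again Olfr777, at 4.56, 5.54 and 4.90 CPM, which fell by 0.75 (SE 0.18, adjusted p = 0.00722). Its values with the mixture and with decanal lie side by side, at a mean of 5.00 ± 0.498 and 4.97 ± 0.329 CPM (SD, n = 3), and below the 7.28 ± 1.18 CPM of acetophenone. Olfr805 was next, from 16.8, 12.1 and 17.4 CPM in the controls to 10.3, 12.1 and 14.0 with the mixture, with overlap (log2 fold change -0.35, SE 0.14, adjusted p = 0.0830). It passed without AD control 2 (-0.50, adjusted p = 0.0147) and without AD mixture 3 (-0.48, adjusted p = 0.0383). Without these libraries the count of members called was 2 and 4, and it was 2 without AD mixture 1.

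Decanal and acetophenone were also compared directly, over 3 libraries each. Of the 53 members 10 were called (18.9%), 4 higher and 6 lower with decanal, beside 27.0% of all genes and 16.1% of receptors. In receptors at large 10.0% were higher and 6.03% lower. Olfr819 had the largest difference, at 3.26 on the log2 scale (9.61-fold, SE 0.45, adjusted p = 0.0001), and its call held without any 1 library. With its copy Gm10310 summed in, the difference was 2.18 (adjusted p = 0.000988). The other 3 that were higher were Olfr826 (0.405, 0.376 and 0.636 CPM with acetophenone, 1.14, 1.25 and 0.771 with decanal, log2 fold change 1.15), Olfr792 (0.446, 0.251 and 0.551 against 0.888, 1.38 and 0.814, 1.29) and Olfr812 (1.54, 1.17 and 0.678 against 2.41, 2.54 and 2.27, 1.09). Olfr826 summed with its close copy Olfr825 stood at 0.91 (edgeR adjusted p = 0.0237).

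The 6 that were lower with decanal than with acetophenone were Olfr806, Olfr805, Olfr794, Olfr777, Olfr788 and Olfr789. Olfr806 read 5.02, 6.48 and 6.78 CPM with acetophenone and 2.79, 4.13 and 4.07 with decanal, a difference of -0.73 on the log2 scale (SE 0.18, adjusted p = 0.00656 by edgeR). The groups do not overlap, and this call held without any 1 library. Its neighbour Olfr805 read 15.1, 18.9 and 17.6 against 12.5, 11.9 and 13.0 CPM (-0.46; -0.53 for both genes summed, adjusted p = 0.00235), and Olfr794 4.29, 6.57 and 5.80 against 3.13, 4.21 and 2.65 CPM (-0.74). Olfr777 stood at -0.55, and the neighbours Olfr788 and Olfr789 at -0.37 each, with overlap between the groups in Olfr789. Olfr792 and Olfr794 are neighbours in the list and were called in opposite directions, 1.29 and -0.74. Calls ended for Olfr805 without acetophenone 2, acetophenone 3 or decanal 2 (adjusted p from 0.0537 to 0.0801), and for Olfr794 without acetophenone 2, acetophenone 3, decanal 1 or decanal 3 (0.0605 to 0.0970). Olfr777 was called only without acetophenone 1 (0.0514 to 0.147 otherwise), and Olfr826 only without acetophenone 3 or decanal 3 (0.0970 to 0.121 otherwise). The count fell to 2 without acetophenone 2, 3 without decanal 1, 4 without decanal 2, 4 without decanal 3, and 5 without acetophenone 3. The 2 left without acetophenone 2 were Olfr819 and Olfr806, so the calls of Olfr788, Olfr789, Olfr792 and Olfr812 ended there too. No fit without 1 library called more than 8 members. With a block for the replicate number Olfr777, Olfr788, Olfr792 and Olfr826 were not called. With the other receptors as the scale, 4 calls were made, Olfr819, Olfr826 and Olfr792 higher and Olfr806 lower.

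With octanal, 12 of the 52 members tested in the OC batch were called (23.1%), all higher. In receptors at large 17.4% were called, with 17.0% higher and 0.433% lower, and in all genes 29.4%, with 14.4% higher and 15.0% lower. The median member stood at 0.45, with 42 of 52 above 0, beside 0.33 for the other receptors. Olfr789 had the smallest p: it read 6.57, 7.91 and 7.15 CPM in the OC controls and 14.0, 14.0 and 12.4 with octanal, with no overlap. It rose by 0.90 on the log2 scale (1.87-fold, SE 0.12, edgeR adjusted p = 0.000153). Olfr806 read 2.32, 2.51 and 1.85 CPM against 4.75, 4.25 and 4.37, and rose by 1.00 (2.00-fold, SE 0.18, adjusted p = 0.000851).

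The next called members with octanal were Olfr805, Olfr788, Olfr780 and Olfr776. Olfr805 went from 7.54, 10.3 and 7.25 CPM to 12.6, 13.8 and 14.9 (log2 fold change 0.72, SE 0.16, adjusted p = 0.00346). Olfr788 went from 10.9, 13.6 and 10.9 to 16.1, 16.3 and 15.5 CPM, a smaller change of 0.44 with a small SE of 0.10 (adjusted p = 0.00465). Olfr780, a low member of family 114, went from 0.408, 0.289 and 0.474 to 0.717, 0.892 and 1.05 CPM (1.17), and Olfr776 of family 111 from 4.49, 5.21 and 2.79 to 5.38, 7.22 and 7.52 CPM (0.69). In each of these the lowest octanal library is above the highest control, and 12 of the 52 tested members had no overlap in this comparison. The other 6, Olfr811, Olfr794, Olfr791, Olfr796, Olfr767 and Olfr820, lay between 0.45 and 0.87. Olfr767 summed with its near-copy Olfr765 stood at 0.69 and was not called (edgeR adjusted p = 0.122). The called members came from 6 families and from both strands, from Olfr767 to Olfr820 in chromosome order. They were mostly the more abundant ones: their median in the OC controls was 3.59 CPM, beside 1.05 CPM for the 40 not called, and 7 of them are among the 10 highest members by level. Low counts give larger SEs and are harder to call, so this does not show that abundant members changed more.

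The calls of Olfr789, Olfr806, Olfr805 and Olfr788 held without any 1 library. That of Olfr780 ended without OC control 2 (1.01, adjusted p = 0.0639) or octanal 3 (1.03, 0.0739), and that of Olfr776 without OC control 3 (0.47, 0.0724), octanal 2 (0.64, 0.0639) or octanal 3 (0.60, 0.0749). Olfr805 and Olfr806 summed stood at 0.79 (adjusted p = 0.000824). The count for octanal was 7 without OC control 3, 7 without octanal 2, and 4 without octanal 3. Under correction for length and GC content it was 3 (Olfr789, Olfr806 and Olfr805).

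With cis-3-hexenol, 7 of 52 members were called (13.5%), all higher, beside 9.42% of receptors, all of them higher, and 12.2% of all genes (5.56% higher and 6.65% lower). The median member was at 0.41 and the median of the other receptors at 0.43. Olfr789 read 10.4, 11.4 and 12.2 CPM, above its 3 controls, and rose by 0.66 (SE 0.12, adjusted p = 0.00529). Olfr806, at 4.03, 3.51 and 4.61 CPM, rose by 0.86 (SE 0.18, adjusted p = 0.00826), and Olfr788, at 16.2, 14.6 and 16.3 CPM, by 0.41. Olfr798 of family 108 went from 2.20, 1.88 and 1.94 CPM to 3.56, 3.26 and 3.73 (0.80), and Olfr813 of the same family from 1.59, 2.17 and 1.33 to 3.03, 3.76 and 3.00 (0.94). None of these 5 overlap with their controls. With Olfr805, which was not called alone, Olfr806 summed to 0.50 (adjusted p = 0.0308), against 0.86 by itself. The call of Olfr789 held without any 1 library, and that of Olfr806 ended without cis-3-hexenol 3 (0.76, adjusted p = 0.0546). That of Olfr788 ended without OC control 1, cis-3-hexenol 1 or cis-3-hexenol 3 (0.36 to 0.39, adjusted p from 0.0631 to 0.0888). That of Olfr798 ended without OC control 3, cis-3-hexenol 1 or cis-3-hexenol 3 (0.76 to 0.80, adjusted p from 0.0542 to 0.0899). Olfr813 stayed called only without OC control 2 (adjusted p from 0.0706 to 0.112 otherwise).

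Olfr812 changed most with cis-3-hexenol among the tested members. It read 0.530, 1.69 and 0.426 CPM in the OC controls and 2.20, 2.62 and 4.10 with the alcohol, or 3.41-fold (1.77 on the log2 scale, SE 0.49, adjusted p = 0.0307). The groups do not overlap, but OC control 2 is far above the other two controls. Its neighbours Olfr811 (0.89) and Olfr813 were called as well. The call of Olfr812 ended without OC control 1 (1.5, adjusted p = 0.101), OC control 3 (1.46, 0.0983), cis-3-hexenol 2 (1.87, 0.0582) or cis-3-hexenol 3 (1.46, 0.142). Without a library the count of members called was 4 (OC control 1), 14 (OC control 2), 3 (OC control 3), 4 (cis-3-hexenol 1), 4 (cis-3-hexenol 2) or 1 (cis-3-hexenol 3), the last being Olfr789.

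With the OC mixture, 16 of 52 members were called (30.8%), all higher, beside 27.4% of receptors, all of them higher, and 24.2% of all genes (11.5% higher). The median was 0.54 for the members and 0.54 for the other receptors. Olfr789 read 13.4, 11.4 and 14.2 CPM (log2 fold change 0.85, SE 0.12, adjusted p = 0.000273), Olfr806 4.44, 4.15 and 4.38 CPM (0.96, SE 0.18, adjusted p = 0.00150) and Olfr788 17.8, 16.1 and 17.7 CPM (0.54, SE 0.10, adjusted p = 0.00153). All 9 of these values lie above the OC controls of the gene. Olfr805, at 13.5, 13.3 and 16.9 CPM, rose by 0.80, and Olfr821, the only member of family 109, by 1.04, from 1.39, 2.07 and 1.66 to 2.97, 3.86 and 3.69 CPM. Olfr780 reached 1.06, 0.879 and 1.15 CPM and rose by 1.39. Olfr777, which was lower with decanal, was among those called higher here: 5.10, 3.42 and 3.13 CPM in the OC controls and 6.43, 4.98 and 7.79 with the mixture, with overlap (0.71, adjusted p = 0.0244). Olfr812 was at 3.09, 2.88 and 1.52 CPM (1.52, adjusted p = 0.0365), also with overlap. Olfr805 and Olfr806 summed stood at 0.83 (adjusted p = 0.000744). The count was 7 without OC control 3 and 6 without OC mixture 1.

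**Figure D4:**
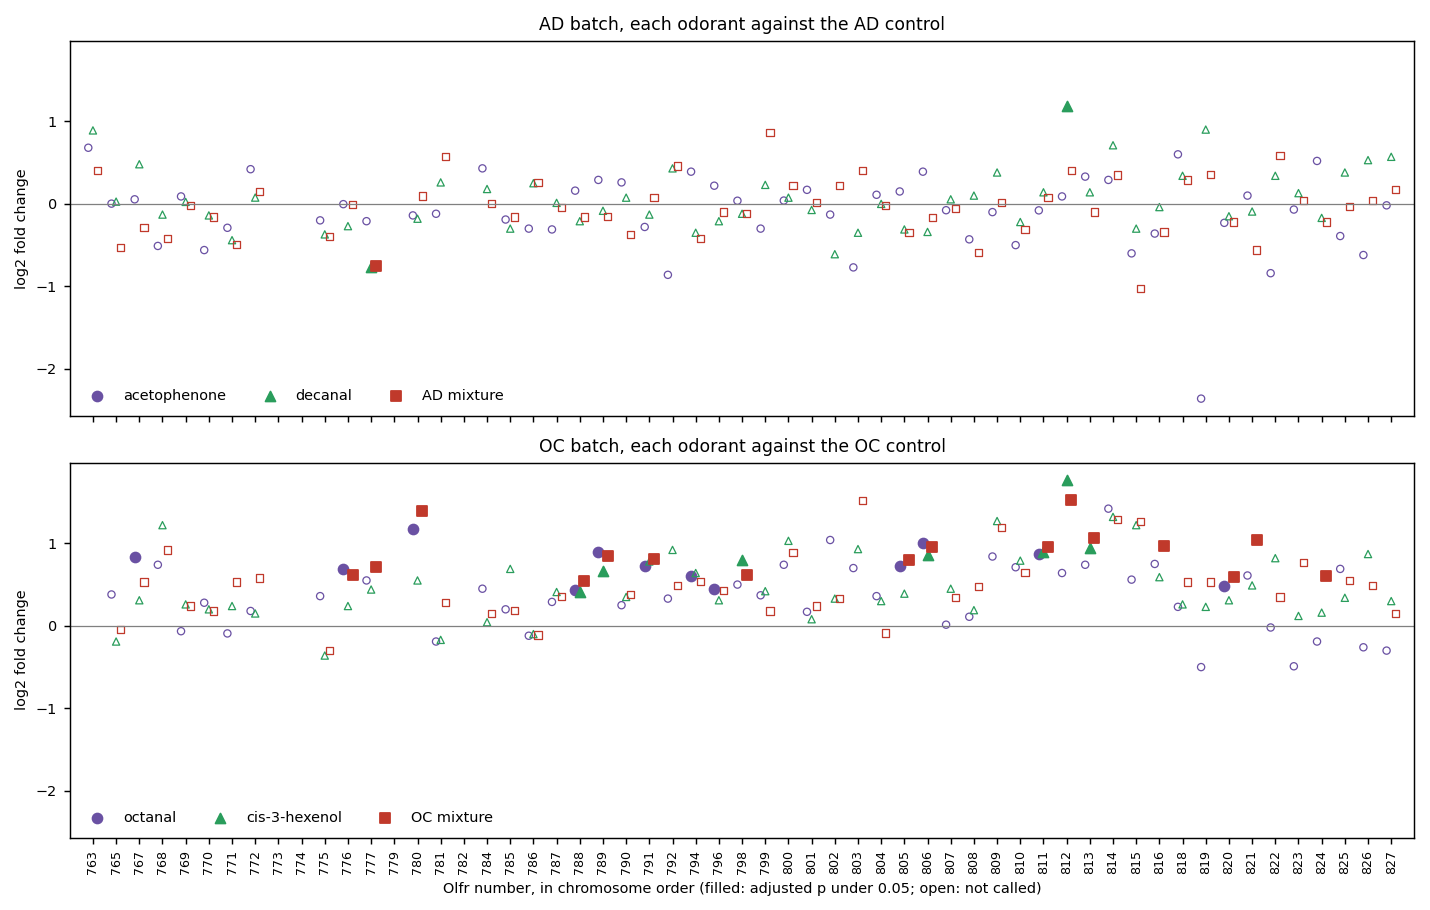
Log2 fold change of each tested member against the control of its batch, in chromosome order, for the AD batch (top) and the OC batch (bottom). Filled symbols are called at an adjusted p under 0.05. The AD values scatter about 0, with Olfr819 lowest at -2.36 with acetophenone, and most OC values lie above 0.

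By family, the OC values are given as a description, with no test between families, and are to be read against the 17.4%, 9.42% and 27.4% of receptors called with octanal, cis-3-hexenol and the mixture. Signs are to be read against the 42, 48 and 48 of 52 tested members that were above 0 in these comparisons. All 4 members of family 108 (Olfr792, Olfr798, Olfr809 and Olfr813) were above 0 in each of the 3 OC comparisons. Their median was 0.62 with octanal, 0.93 with cis-3-hexenol and 0.84 with the mixture, and 0, 2 and 2 of them were called. This sign was not particular to family 108: family 112 had 2 of 2 above 0 in each, and family 110 had 8, 8 and 7 of 8. Of the 8 tested in family 110, 3, 3 and 4 were called, and of the 9 in family 111 3, 2 and 3. Family 114 had 3 of 12 called with octanal, 0 with cis-3-hexenol and 3 with the mixture. Family 210 (Olfr823 to Olfr827) had 1 of 5 above 0 with octanal (median -0.26), 5 of 5 with cis-3-hexenol (0.30) and 5 of 5 with the mixture (0.55), with 0, 0 and 1 called. The 1 called was Olfr824, and summed with its near-copy Olfr823 it stood at 0.63 (edgeR adjusted p = 0.0321). The 3 comparisons share their controls, so a high or low control library moves all 3 values of a gene together. These values hold under TMM, and the scale to other receptors that follows lowers them.

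Since the summed receptor level was higher in each OC odorant library than in the OC controls, the members were also scaled to the 1050 other receptors, a choice made after the data were seen. That scale moves the median of all genes by -0.41 with octanal, -0.38 with cis-3-hexenol and -0.51 with the OC mixture, by 0.13 with decanal and by 0.16 with the AD mixture. On it the median member stood at 0.06, 0.04 and 0.04 in the 3 OC comparisons, with 29, 28 and 33 of 52 above 0. The share of receptors at large called on this scale is not given for any comparison, so calls on it cannot be weighed against that share. With octanal Olfr789 (0.52, adjusted p = 0.00431) and Olfr806 (0.62, 0.0112) were called higher and Olfr824 lower (-0.58). The split of Olfr824 with its near-copy Olfr823 is an estimate. Under TMM the pair summed stood at -0.23 with octanal (edgeR adjusted p = 0.44). With cis-3-hexenol Olfr812 (1.42, 0.0142) and Olfr806 (0.49, 0.0391) were called higher. With the mixture Olfr789 (0.35, 0.0302), Olfr806 (0.45, 0.0417) and Olfr812 (1.04, 0.0484) were higher and Olfr786 lower (-0.62). Olfr788, called in all 3 comparisons under TMM, was at 0.06, 0.05 and 0.04. Against the AD control the same members were called on this scale: Olfr812 at 1.29 and Olfr777 at -0.63 with decanal, and Olfr777 at -0.60 with the mixture.

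**Figure D5:**
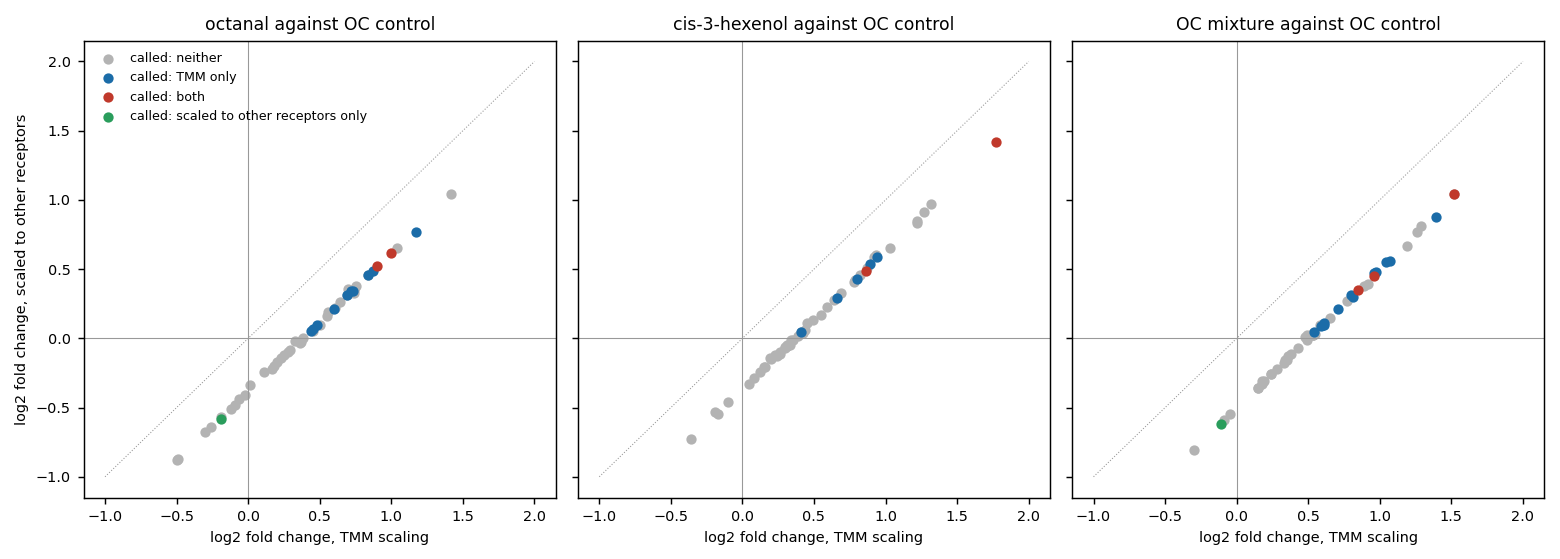
Log2 fold change of each member under TMM (horizontal) and with the other receptors as the scale (vertical), for octanal, cis-3-hexenol and the OC mixture against the OC control. The points lie parallel to and below the dotted line of equal values, and few of those called under TMM are also called on the receptor scale.

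Octanal and cis-3-hexenol were compared directly over 3 libraries each. No member was called by edgeR (0.0% of all genes and 0.0% of receptors), 5 members had an unadjusted p under 0.05, and DESeq2 called 0. Olfr826 was first by p, at 1.03, 0.510 and 0.336 CPM with octanal and 1.57, 1.48 and 1.06 with cis-3-hexenol, without overlap (log2 fold change 1.13, SE 0.40, adjusted p = 0.253). Olfr812 read 0.807, 0.934 and 2.31 against 2.20, 2.62 and 4.10 CPM, with overlap (1.13, SE 0.47, adjusted p = 0.319), and it passed with no low-count filter (1.12, adjusted p = 0.0166). Its fold change barely moved without the filter, and the share of all genes called in that fit is not given. Olfr789 stood at -0.24 (SE 0.11) and Olfr806 at -0.14 (SE 0.17), neither of which passed. These values do not show that the members answered alike to both odorants.

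Whether the members answered differently to the straight-chain aldehydes was tested as the octanal response minus the decanal response, each against its own control, over all 24 libraries. Of the 53 members tested 11 were called (20.8%), all with a higher value for octanal, beside 16.4% of receptors (15.7% higher) and 39.2% of all genes (18% higher). The smallest p was that of Olfr806, at 1.32 (SE 0.24, adjusted p = 0.000118), followed by Olfr789 at 0.96 (SE 0.18, adjusted p = 0.000175) and Olfr805 at 1.01 (SE 0.22, adjusted p = 0.000826). Olfr777 stood at 1.28 (SE 0.29, adjusted p = 0.00117), from its fall with decanal and a value of 0.55 with octanal that was not called. Olfr788 (0.63) and Olfr776 (0.94) followed, and the calls of these 6 held without any 1 of the 12 libraries. With the other receptors as the scale, 7 calls were made: Olfr806, Olfr805, Olfr777 and Olfr789 higher and Olfr827, Olfr819 and Olfr786 lower. Olfr805 and Olfr806 summed stood at 1.11 (adjusted p = 4.43e-05). Olfr819 summed with Gm10310 was at -0.43 under TMM (adjusted p = 0.6). The median difference over the members was 0.40 under TMM, beside 0.31 for the other receptors, and -0.08 with the other receptors as the scale. The share of members called is near that of receptors at large. Batch and odorant differ together here, so the 2 cannot be told apart other than through the controls. The count was 7 without OC control 1.

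Beside the members stand 30 genes listed for receptor choice, trafficking and transduction. Their counts are to be read against the share of all genes called, which was 23.9% with decanal, 22.3% with the AD mixture, 29.4% with octanal, 12.2% with cis-3-hexenol, 24.2% with the OC mixture and 27.0% between decanal and acetophenone. With acetophenone 0 of 30 were called by edgeR. With decanal 3 were higher and 12 lower, among them Pde1c, a cAMP phosphodiesterase of the cilia (-0.60), Kdm1a, a histone demethylase needed to start receptor choice (-0.29), the transcription factor gene Ebf2 (-0.39), and Atf5, a factor of the receptor feedback signal (0.53). With the AD mixture 3 were higher and 13 lower, with Pde1c at -0.63, Gng13, a G-protein subunit gene, at 0.61, Adcy3, the adenylyl cyclase of the cilia, at -0.51 and Ebf2 at -0.41. With octanal 9 of 29 were higher and 6 lower, with Atf5 at -1.14, Ebf3 at -0.75, Omp at -0.45 and Pde1c at 0.68. With cis-3-hexenol 8 were higher and 5 lower, with Atf5 at -0.74, Ebf3 at -0.52, Omp at -0.31 and the heterochromatin gene Cbx5 at -0.45. With the OC mixture 11 were higher and 5 lower, with Atf5 at -0.93, Ebf3 at -0.59, Ric8b, which promotes the olfactory G protein, at 0.59 and Omp at -0.32. Between decanal and acetophenone 2 were higher and 13 lower, and between cis-3-hexenol and octanal 0 of 29 were called.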

How the data were processed

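The authors deposited estimated counts (expected counts, partly fractional) made from reads per Ensembl gene, 1 table per batch, not scaled between libraries, per the file headers and values; 12.8% of AD and 12.6% of OC values were not whole. Per the submitters' processing notes the tools were STAR 2.7.10b, Salmon 1.10.1 and R 4.4.2 on GRCm39, without the role of each. The annotation release and whether counting used strand are not given in the sources used here. Libraries were poly(A) selected and stranded, per the labels' protocols. Symbols, lengths, GC content and coding sequences came from GENCODE M21 (GRCm38) by Ensembl ID, which named 52029 of 57010 genes, so no coordinates are given.

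Counts were rounded, by at most 0.5. edgeR 4.0.16 (R 4.3.3) was run with filterByExpr and TMM, as 1 quasi-likelihood fit per batch of 12 libraries and 4 groups with no block, two-sided, with Benjamini-Hochberg adjustment over the 19525 (AD) or 19175 (OC) genes tested. The comparison of aldehydes used 24 libraries and 20018 genes. An SE is the log2 fold change over the square root of F. Alternatives were DESeq2 1.42.0, its size factors, no filter, loess offsets for length and GC content (span 0.3), each library left out, and a replicate block. Scaling to other receptors and summing of near-copies were added after the data were seen. The scripts were tested on simulated counts.

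The members, lists and alternatives were chosen with earlier results of these data known. Named with values were the called members of a comparison, up to 6 by p, else the first 2; the 5 highest and 3 lowest tested members; called neighbours of opposite direction; up to 4 called pathway genes. The naming rule also took members with near-identical proteins; no proteins were used here, and coding sequences stand in for them. Others are examples chosen after their values were seen. P-values set a difference between groups against the spread between libraries, which may be partly technical.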

Additional observations from a re-analysis of the deposited data

Results flagged for a closer look

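The octanal response differed from the decanal response by a test of the difference itself, with edgeR over 24 libraries, in 11 of 53 members. That is 20.8% of the members, beside 16.4% of receptors and 39.2% of all genes, so the members' share is near that of receptors at large. The median difference was 0.40 for the members and 0.31 for the other receptors. The values, as log2 differences, were 1.32 for Olfr806, 0.96 for Olfr789, 1.01 for Olfr805, 1.28 for Olfr777, 0.63 for Olfr788, 0.94 for Olfr776, 0.93 for Olfr794, 0.62 for Olfr820, 1.33 for Olfr780, 0.84 for Olfr791 and 0.65 for Olfr796. All are higher for octanal under TMM. Olfr806, Olfr805, Olfr777 and Olfr789 were also called with the other receptors as the scale, at 0.85, 0.52, 0.78 and 0.48. On that scale Olfr827, Olfr819 and Olfr786 were called lower, and the median member was at -0.08. The OC controls, against which octanal was measured, had a lower sum of all receptors than the OC odorant libraries, and the part of that in these differences was not tested.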

How the results depend on the processing

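DESeq2 size factors and the DESeq2 Wald test left each count of called members within 1.5 times its value. With no low-count filter the counts were 1 for acetophenone, 2 for the AD mixture, 13 for cis-3-hexenol and 1 for cis-3-hexenol against octanal. With length and GC offsets they were 1 for decanal, 2 for the AD mixture, 3 for octanal, 2 for cis-3-hexenol, 4 for the OC mixture and 7 for octanal minus decanal. With other receptors as the scale they were 3 for octanal, 2 for cis-3-hexenol, 4 for the OC mixture, 4 for decanal against acetophenone and 7 for octanal minus decanal. The shares of all genes and of receptors called are not given for these settings, for the replicate block or for the fits without 1 library. The counts of members can thus not be weighed against such shares. The cause of these changes was not tested.

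Libraries with the same replicate number showed low correlations (r from -0.19 to 0.24 over 36 pairs, 4 of them over 0.1). The main fit used no block, though groups of 3 libraries are too small to exclude a pairing by number. A replicate block gave 6 calls for decanal against acetophenone, and it left the other counts within 1.5 times. The replicate block with length and GC offsets gave 1 for decanal, 3 for octanal, 0 for cis-3-hexenol, 3 for the OC mixture and 5 for octanal minus decanal.

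Leaving out 1 library gave 0 for acetophenone, 1 to 3 for decanal, 1 to 4 for the AD mixture, 4 to 15 for octanal, 1 to 14 for cis-3-hexenol, 6 to 19 for the OC mixture, 2 to 8 for decanal against acetophenone, 0 for cis-3-hexenol against octanal and 7 to 13 for octanal minus decanal.

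The log2 ratio of the members' share of receptor counts to that of the control was 0.02 for decanal, -0.0011 for the AD mixture, 0.11 for octanal, 0.10 for cis-3-hexenol and 0.10 for the OC mixture. Leaving out 1 library moved these to 0.0047 (AD control 3) to 0.033 (decanal 2), -0.043 (AD mixture 1) to 0.058 (AD mixture 2) with a change of sign, 0.074 to 0.17, 0.061 to 0.15 and 0.065 to 0.16, the last 3 lowest without OC control 3 and highest without OC control 2. For acetophenone the ratio was 0.033, and -0.013 (acetophenone 2) to 0.071 (acetophenone 1). In CPM of the library in place of the share the ratios were -0.10, -0.15, 0.49, 0.46 and 0.60. Members near the filter, such as Olfr819 at 2 to 15 counts in the AD controls and acetophenone libraries, have few counts, which limits what can be told apart.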
